A study of Mus musculus with 2 samples.

Results

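Peroxisome biogenesis and peroxisomal lipid oxidation were examined through 37 genes out of 18194 genes with a value on the array. The 37 genes were chosen by the known function of their proteins, with earlier results of these data known. They comprised 12 peroxins, which build the organelle, 5 genes of membrane transporters and channels, 14 genes of oxidation enzymes, and 6 genes of acyl-CoA thioesterases and the carnitine transferase Crot. All 37 are called peroxisomal genes below, although Acot1 and Acot12 encode cytosolic enzymes and Abcd4 a lysosomal transporter. Livers of FLS mice, an inbred strain that serves as a model of NASH, were set against livers of DS mice, the reference and the model of simple steatosis. Both strains were inbred from the outbred ddN colony, FLS mice from its C line and DS mice from its A line. All mice were 19 weeks old and ate a standard pellet diet, and their livers were perfused with saline under pentobarbital. RNA of 3 FLS mice was pooled for 1 Affymetrix mouse genome array, and RNA of 3 DS mice for another. As each strain had a single array, there was no replicate to check a difference against, and p-values are not given. Since the strains have separate inbred backgrounds, a difference linked to liver disease cannot be told apart from any other strain difference.

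Peroxisomes of hepatocytes shorten very long chain, branched and dicarboxylic fatty acids and the side chain of bile acid precursors, which mitochondria handle poorly. Peroxins place membrane proteins, import folded enzymes from the cytosol and divide the organelle. In mice, the fatty acid receptor PPARA induces many of the enzymes and enlarges the peroxisome compartment, for which the liver of rodents is well known. Shortened acyl groups leave as carnitine esters, made by Crot, or as free acids, released by thioesterases.

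The FLS/DS ratio of the signal intensity was taken for each gene from the probe set that had the highest mean of both signals. A gene counted as measured if its signal was above 500 in at least 1 pool, which held for 5076 genes. Of the 37 genes, 30 were measured. In FLS livers 0 of these 30 were 2-fold higher or more and 0 were 2-fold lower or more. Among all measured genes, 2.29% passed 2-fold upward and 1.77% downward. At 1.5-fold, 2 of the 30, Crot and Acot1, were higher in FLS livers and 0 were lower, against 6.11% higher and 4.49% lower among all measured genes. The ratios of the 30 genes ran from 0.755 for Pex3 to 1.87 for Crot. Their median log2 ratio was 0.054, beside 0.040 for all measured genes.

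Most of these ratios lay close to 1, as did those of the array as a whole. Of the 30 genes, 21 lay within 1.2-fold of equal signals, beside 63.6% of all measured genes. Among genes with a signal above 1000, 18 of 25 peroxisomal genes did so, beside 64.7% of all such genes. The only spread that could be taken was that between measured probe sets of 1 gene. It had a pooled SD of 0.22 on the log2 scale over 1424 genes. Since these probe sets were read on the same 2 arrays, this SD holds no variation between mice, pools or arrays. The log2 ratio exceeded this SD in 12 of the 30 genes, 6 of them higher and 6 lower in FLS livers, and in 42.7% of all measured genes. Under quantile normalization, median centring and loess, all 30 genes kept their side of 1. Division by the ratio of Actb shifts every log2 ratio upward by 0.21 alike, and then 24 of the 30 lay above 1, beside 81.4% of all measured genes, against 16 of 30 and 56.4% as deposited.

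**Figure D1:**
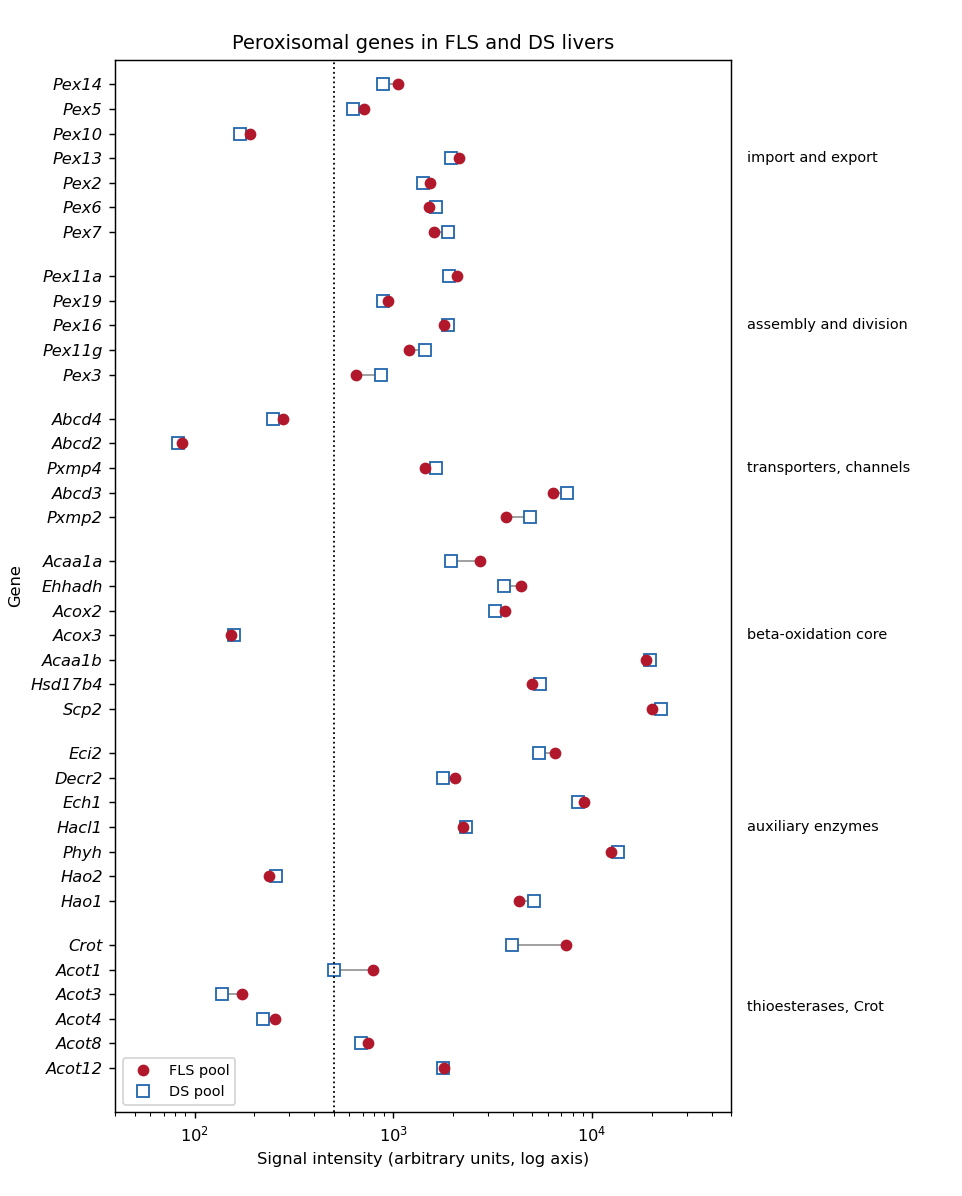
Signal intensities (log axis) of the 37 peroxisomal genes in FLS livers (circles) and DS livers (squares), each a pool on 1 array, grouped by role and ordered by ratio. The dotted line marks a signal of 500. The pair of symbols nearly overlaps for most genes and stands clearly apart for Crot, which gave 7378 in FLS livers against 3949.6 in DS livers.

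Markers of the cell types of liver were read on the same arrays. The 9 hepatocyte markers on the array summed to 161032 in FLS livers against 154738 in DS livers, with ratios between 1.01 and 1.35. Kupffer cell and macrophage markers summed to 4555 in FLS livers against 6025 in DS livers over 8 genes, with ratios between 0.554 and 1.26. Stellate cell markers summed to 12868 in FLS livers against 9802 in DS livers over 8 genes, with ratios between 0.880 and 2.02. Endothelial markers summed to 6074 in FLS livers against 5420.2 in DS livers over 7 genes, with ratios between 0.858 and 1.83. Each of the last 3 lists thus held ratios on both sides of 1. Of their genes 5, 4 and 3, in this order, were measured. No marker of cholangiocytes, T and NK cells, B cells, neutrophils or adipocytes was above 500 in either pool, with signals between 50.2 and 365 over 22 genes. In whole liver, fewer cells of a type and less RNA per cell cannot be told apart. The part of these cell types in the ratios was not tested.

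The largest difference belonged to Crot, the carnitine octanoyltransferase that turns medium-chain products of peroxisomal oxidation into carnitine esters for export. Crot gave a signal of 7378 in FLS livers against 3949.6 in DS livers, a ratio of 1.87. Another Crot probe set gave 139 in FLS livers against 152 in DS livers, near the array medians of 120.3 in FLS livers and 125.2 in DS livers. The median over both Crot probe sets gave a ratio of 1.31, below 1.5-fold. Under the other scalings of the arrays the ratio ran from 1.86 to 2.15, and the value above 2 came with division by the ratio of Actb.

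Acot1, a cytosolic thioesterase of long-chain acyl-CoA, gave 789 in FLS livers against 504 in DS livers, a ratio of 1.57. Its DS signal was the closest of all measured members to the limit of 500. Among members that did not reach the limit, Abcd4 came closest, at 279 in FLS livers against 248 in DS livers. Under the other scalings the ratio of Acot1 ran from 1.51 to 1.80. Acot1 lies in a row of 6 related genes on chromosome 12, in the order Acot2, Acot1, Acot4, Acot3, Acot5 and Acot6. Acot2, the mitochondrial enzyme of the family and a close paralog of Acot1, had a ratio of 1.35, with signals of 616 in FLS livers against 455 in DS livers. The other 4 genes were not measured, and their ratios ran from 0.909 for Acot6 to 1.26 for Acot3. A probe set that carries both Acot2 and Acot1 was kept out of the values of genes. It did not reach 500, at 395 in FLS livers against 386 in DS livers, and its ratio of 1.02 lies below the 1.57 of Acot1 by more than 1.5 times. The probe sets of Acot1 thus differ on whether it passed 1.5-fold, and how far each reads a paralog was not examined.

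Of the remaining thioesterases, Acot8 and Acot12 were measured, and both lay within 1.2-fold of equal signals. Acot8, a peroxisomal thioesterase of broad substrate range, gave 749 in FLS livers against 684 in DS livers, a ratio of 1.09. Acot12, which cleaves acetyl-CoA in the cytosol, gave 1808 in FLS livers against 1779 in DS livers. Its 2 measured probe sets had ratios of 1.02 and 1.07. Acot3 and Acot4, peroxisomal thioesterases, were not measured, at 172 in FLS livers against 137 in DS livers for Acot3 and at 253 in FLS livers against 221 in DS livers for Acot4.

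The stretches before the transcription start of Crot and Acot1, the pair with the highest ratios, and of Pex3, the gene with the lowest, are printed to show the promoter sequence next to each start. They are the 250 bases before the start in RefSeq on build GRCm38.p6, 5′ to 3′ on the strand of the gene, with CpG dinucleotides in capitals. Crot is read from chr5:8997147-8997396 on the minus strand, Acot1 from chr12:84009252-84009501 on the plus strand and Pex3 from chr10:13553143-13553392 on the minus strand.
Crot: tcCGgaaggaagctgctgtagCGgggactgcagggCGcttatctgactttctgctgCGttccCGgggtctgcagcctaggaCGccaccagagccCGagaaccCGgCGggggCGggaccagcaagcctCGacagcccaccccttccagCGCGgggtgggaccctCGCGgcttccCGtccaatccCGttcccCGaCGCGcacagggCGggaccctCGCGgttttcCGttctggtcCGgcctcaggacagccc
Acot1: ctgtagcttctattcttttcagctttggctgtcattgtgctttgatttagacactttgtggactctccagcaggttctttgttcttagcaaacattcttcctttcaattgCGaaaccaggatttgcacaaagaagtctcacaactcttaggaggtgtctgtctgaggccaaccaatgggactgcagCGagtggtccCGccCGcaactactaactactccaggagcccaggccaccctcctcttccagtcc
Pex3: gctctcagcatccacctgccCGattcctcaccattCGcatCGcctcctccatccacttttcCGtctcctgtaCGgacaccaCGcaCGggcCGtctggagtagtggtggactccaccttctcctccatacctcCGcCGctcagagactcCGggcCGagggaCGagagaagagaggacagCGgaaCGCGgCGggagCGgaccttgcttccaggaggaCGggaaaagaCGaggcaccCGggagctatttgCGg

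The capitals show 25 CpG dinucleotides before Crot, 4 before Acot1 and 22 before Pex3, where the median over 32851 promoter windows was 6. Both the gene with the highest ratio and the gene with the lowest thus have a CpG-rich start, while that of Acot1 is CpG-poor. Of the 37 genes, 31 had a window in the table, with 37 windows in all and a median of 11 CpG. The binding element of PPARA is a repeat of the half-site AGGTCA with 1 base between, AGGTCANAGGTCA, searched on both strands. It was found in 0 of the 37 windows and in 0.0335% of all windows. The looser form AGGNCANAGGTCA, which includes the first, was found in 0 of the 37 and in 0.0822% of all windows. The half-site alone, which both forms contain, was found in 4 of the 37 windows, before Acot12, Acot4, Pex11g and Scp2, and in 14.0% of all windows. Both full forms were so rare among all windows that 0 in 37 was likely for any set of genes. The search thus could not show a lack of them. Elements farther from the start lie outside these windows.

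Genes of peroxisome biogenesis showed small ratios in both directions. Of 11 measured peroxins, 6 had a ratio above 1 and 5 below (8 and 3 after division by Actb), and 9 lay within 1.2-fold of equal signals. Their median log2 ratio was 0.085. Pex10, a ubiquitin ligase subunit of the import machinery, was not measured, at 191 in FLS livers against 169 in DS livers.

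Among peroxins of matrix protein import, Pex14, a docking protein of the membrane, had the highest ratio at 1.18, with signals of 1050.3 in FLS livers against 889 in DS livers. Pex5, the receptor for enzymes with the common C-terminal signal, gave 710.4 in FLS livers against 627 in DS livers, a ratio of 1.13. Pex7, the receptor for the less common N-terminal signal, gave 1603 in FLS livers against 1886 in DS livers, a ratio of 0.850. The receptors for both import signals thus lay on opposite sides of 1. Pex13, which forms the docking site with Pex14, had a ratio of 1.10, and Pex2, a ubiquitin ligase subunit that marks Pex5 for recycling, had 1.09. Pex6, an ATPase that extracts Pex5 from the membrane, had ratios between 0.811 and 0.988 over 4 measured probe sets.

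Pex3, the membrane anchor on which new peroxisomal membrane proteins dock, had the lowest ratio of all measured members. Its signal was 652 in FLS livers against 864 in DS livers, and its 2 measured probe sets had ratios of 0.755 and 0.736. As deposited, both probe sets thus differed from equality by more than the SD between probe sets. Over other scalings the ratio ran from 0.730 to 0.870. The value of 0.870 came with division by Actb, where the log2 ratio of -0.20 lay within that SD. Pex19, the chaperone that brings membrane proteins to Pex3, gave 940.4 in FLS livers against 887 in DS livers. A second measured probe set of Pex19 had a ratio of 0.833 against 1.06 for the first, so its direction was not settled. Pex16, which also takes part in membrane assembly, had a ratio of 0.956.

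The Pex11 proteins elongate peroxisomes before division. Pex11a, the form induced by PPARA ligands in rodents, gave 2090.5 in FLS livers against 1911 in DS livers, and ratios of 1.09 and 1.18 on its 2 probe sets. Pex11g gave 1196 in FLS livers against 1437 in DS livers on the probe set used. Its 3 measured probe sets had ratios of 0.833, 0.756 and 1.16, so their direction differed within the gene.

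**Figure D2:**
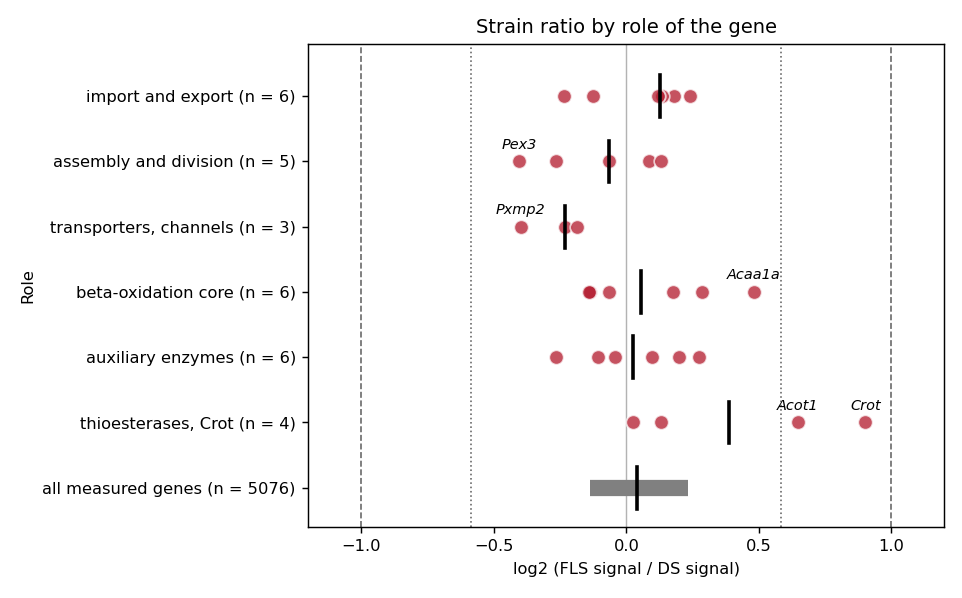
Log2 FLS/DS ratio of the 30 measured genes by role, 1 point per gene, with the median of each role (black bar). The lowest row gives the quartiles (grey) and median of all 5076 measured genes, and dotted and dashed lines mark 1.5-fold and 2-fold. Crot and Acot1 are the points beyond a dotted line, and all 3 measured transporters and channels lie left of 0, of which Pxmp4 moves to the right of it after division by Actb.

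Membrane transporters and channels had ratios below 1 in all 3 measured genes as deposited, with a median log2 ratio of -0.23, though Pxmp4 turned to 1.01 after division by the ratio of Actb. Pxmp2, which forms a channel for small solutes, gave 3694 in FLS livers against 4869 in DS livers, a ratio of 0.759. Abcd3, the transporter of branched, dicarboxylic and bile acid precursors, gave 6328 in FLS livers against 7430.0 in DS livers, a ratio of 0.852. Pxmp4, a membrane protein, had a ratio of 0.879 on the probe set used and of 0.725 on the other. Pxmp2 and Abcd3 stayed below 1 under every scaling tried. Abcd2, a transporter of very long chain acyl-CoA, was near the array medians, at 86.3 in FLS livers against 82.6 in DS livers, and Abcd4, which exports cobalamin from lysosomes despite its family, was not measured.

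Of 12 measured oxidation enzymes, 6 had a ratio above 1 and 6 below, and the median log2 ratio was 0.025. After division by Actb, 11 lay above 1 and Hao1 alone below. As deposited, no oxidation enzyme reached 1.5-fold, whereas Acaa1a did so at 1.61 after division by Actb, and 8 of the 12 lay within 1.2-fold of equal signals. The others were Acaa1a at 1.39, Ehhadh at 1.22, Eci2 at 1.21 and Hao1 at 0.833.

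In the first step of beta-oxidation, Acox2, the oxidase of branched acids and bile acid precursors, gave 3643 in FLS livers against 3227 in DS livers, a ratio of 1.13. Acox3, another branched-chain oxidase, was not measured, at 152 in FLS livers against 158 in DS livers. The steps that follow are served by a pair of bifunctional enzymes, and these had ratios on opposite sides of 1. Ehhadh, the enzyme of dicarboxylic acids, gave 4393 in FLS livers against 3603 in DS livers, a ratio of 1.22. Hsd17b4, the enzyme of branched acids and bile acid precursors, gave 4990.1 in FLS livers against 5494 in DS livers, a ratio of 0.908 that its second probe set gave as 0.905. The ratio of Hsd17b4 turned to 1.05 after division by Actb, while that of Ehhadh stayed between 1.21 and 1.41.

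Thiolases perform the last step. Acaa1a gave 2727 in FLS livers against 1955 in DS livers, a ratio of 1.39, and its other measured probe set gave 1.17. Acaa1b, its close paralog on the same chromosome, gave 18568 in FLS livers against 19429 in DS livers, a ratio of 0.956 that turned to 1.10 after division by Actb. The 2 probe sets that carry both names, kept out of the values of genes, had signals of 8977 and 11535 in FLS livers, against 10437 and 12901 in DS livers. Their ratios of 0.860 and 0.894 lie on the other side of 1 from both ratios of Acaa1a. Both probe sets of Acaa1a belong to a class that may bind related transcripts, so the direction of Acaa1a and the share of each paralog are uncertain. Scp2, which encodes the thiolase of branched acids and a sterol carrier, gave 20038 in FLS livers against 22089.6 in DS livers. Its 4 measured probe sets had ratios between 0.749 and 0.943, all below 1, and the probe set used turned from 0.907 to 1.05 after division by Actb.

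Enzymes for unsaturated acids had ratios above 1 in all 3 genes. Eci2, also called Peci, an isomerase that shifts double bonds, gave 6510.2 in FLS livers against 5378 in DS livers, a ratio of 1.21. Decr2, a reductase of dienoyl-CoA, gave 2037 in FLS livers against 1776 in DS livers, a ratio of 1.15. Ech1, a dienoyl-CoA isomerase, gave 9068 in FLS livers against 8489 in DS livers, a ratio of 1.07. The 3 ratios stayed above 1 under all scalings tried, and as deposited Eci2 alone exceeded the SD between probe sets.

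Enzymes of alpha-oxidation and hydroxy acid oxidation had ratios below 1 as deposited, though Phyh and Hacl1 lay above 1 after division by Actb. Phyh, which starts the breakdown of phytanic acid, gave 12481 in FLS livers against 13433.5 in DS livers, a ratio of 0.929. Hacl1, the lyase that follows, had a ratio of 0.970, with signals of 2246 in FLS livers against 2316 in DS livers. Hao1, the glycolate oxidase of liver, gave 4264 in FLS livers against 5121 in DS livers, a ratio of 0.833. Hao2, an oxidase of longer hydroxy acids, was not measured, at 238 in FLS livers against 256 in DS livers.

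Biogenesis genes and oxidation enzymes were then compared as groups, as genes that build the organelle and genes that use it. As deposited, the median log2 ratio of biogenesis genes was 0.060 above that of oxidation enzymes. This order reversed under quantile normalization, at 0.031 for biogenesis genes and 0.033 for oxidation enzymes. It also reversed with the median over the probe sets of each gene, at 0.020 and 0.025, and held under the other alternatives. As deposited, the median of the thioesterases and Crot was 0.39 over 4 genes, and biogenesis genes lay 0.30 below it. Without Crot, which is no thioesterase, the median over 3 thioesterases was 0.13, and biogenesis genes lay 0.046 below it. The distance of this group from the others thus rested on Crot and Acot1. Genes are not replicates, so these differences describe the pair of arrays alone.

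**Figure D3:**
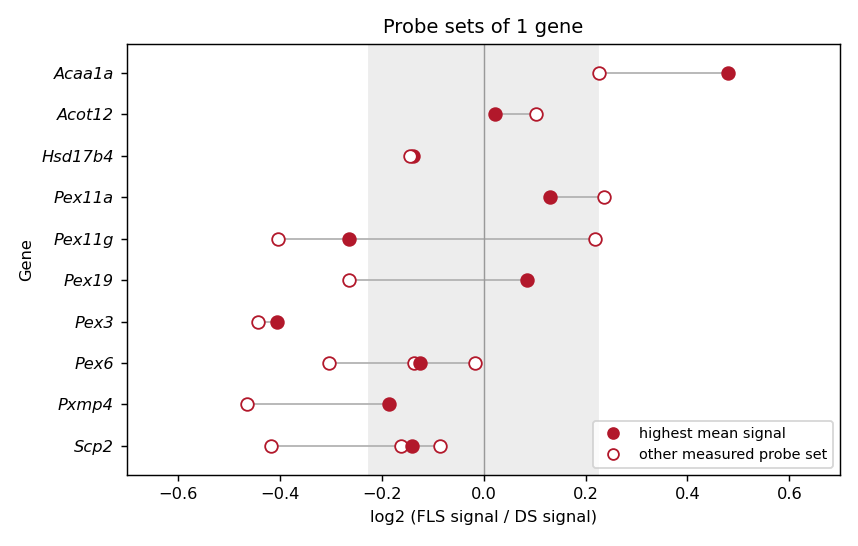
Log2 FLS/DS ratio of every measured probe set of the 10 genes with at least 2, with the probe set of highest mean signal filled. The grey band is the SD of 0.22 between probe sets on either side of 0. Both probe sets of Pex3 lie left of the band, while those of Pex11g and Pex19 lie on both sides of 0.

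Of the 67 probe sets of the 37 genes, 45 were measured. A total of 10 genes had at least 2 measured probe sets, and in 8 of them all lay on 1 side of equality. The exceptions were Pex11g and Pex19. None of the 45 probe sets was 2-fold different in either direction, and 2 were at least 1.5-fold different, those of Crot and Acot1.

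Other genes of the peroxisome were read from lists that do not overlap with the 37 genes. Of 62 such genes, 53 had a value and 40 were measured, with a median log2 ratio of -0.054. As deposited, 26 of the 40 lay below 1, beside 43.6% of all measured genes. After division by Actb 12 did so, beside 18.6%. In FLS livers 1 of these 40 passed 2-fold upward and 0 downward, and 2 passed 1.5-fold upward and 2 downward. Among all measured genes the shares were 2.29% and 1.77% at 2-fold and 6.11% and 4.49% at 1.5-fold, so these counts lay near the background. These genes include some that lie mainly elsewhere in the cell.

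Among other lipid enzymes, Amacr, the racemase that prepares branched acids and bile acid precursors for oxidation, gave 3505 in FLS livers against 1896 in DS livers, a ratio of 1.85. Acox2, Hsd17b4 and Scp2, which act after it, had ratios of 1.13, 0.908 and 0.907. Idi1, an isomerase of cholesterol synthesis, had a ratio of 3.22, with signals of 1236 in FLS livers against 384 in DS livers. Acsl4, an acyl-CoA synthetase that prefers arachidonate, gave 819 in FLS livers against 1270.4 in DS livers, a ratio of 0.645. Nudt7, which breaks down coenzyme A in the peroxisome, had a ratio of 0.745, Dhrs4 of 0.782 and the epoxide hydrolase Ephx2 of 0.795.

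Among oxidases and antioxidant enzymes, Pipox, the oxidase of sarcosine and pipecolic acid, gave 2265 in FLS livers against 4216 in DS livers, a ratio of 0.537. Cat, the catalase that removes the hydrogen peroxide made by peroxisomal oxidases, gave 11114 in FLS livers against 11296 in DS livers, a ratio of 0.984. Agxt, which converts the glyoxylate formed by Hao1 into glycine, gave 5906 in FLS livers against 4014 in DS livers, a ratio of 1.47. Agxt and Hao1 thus lay on opposite sides of 1. Xdh had a ratio of 0.746, the urate oxidase gene Uox of 0.817, the aspartate oxidase gene Ddo of 0.852 and Idh1 of 0.881. Of the 9 measured genes, 7 lay below 1, beside 43.6% of all measured genes. The count fell to 5 with median centring and to 4 after division by Actb, beside 37.3% and 18.6% of all genes.

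The 13 measured genes of the list of other biogenesis and division genes had ratios with a median of -0.042 on the log2 scale, and 0 of them were 1.5-fold different. Mpv17l had a ratio of 0.731, the ubiquitin ligase gene Trim37 of 0.746 and Mpv17 of 0.842. Lonp2, the protease of the peroxisome matrix, had a ratio of 1.16, the processing protease gene Tysnd1 of 1.10 and the tether gene Acbd5 of 1.08. The spread of this list, with an SD of 0.20 over genes, was close to the 0.21 of the 11 peroxins among the 37 genes.

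PPARA and its targets outside the peroxisome were read as well, since the receptor drives many of the 37 genes in mice. The signal of Ppara itself was 3052 in FLS livers against 3304 in DS livers, a ratio of 0.924. Rxra, its partner receptor, had a ratio of 1.19. The coactivator gene Ppargc1a was not measured, at 219 in FLS livers against 112 in DS livers. Of 21 measured genes 1 was at least 1.5-fold higher in FLS livers and 0 were lower, near the shares of 6.11% and 4.49% among all measured genes. Their median log2 ratio was 0.15, beside 0.040 for all measured genes. A ratio above 1 was found in 17 of the 21, beside 56.4% of all measured genes. The count was 16 with loess and 20 after division by Actb, beside 53.7% and 81.4% of all measured genes.

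The single gene past 1.5-fold was Cyp4a14, an omega-hydroxylase whose products feed dicarboxylic acid oxidation in the peroxisome. Its signal was 1482 in FLS livers against 84.6 in DS livers, a ratio of 17.5. The DS signal lies below the array median, so the size of this ratio is uncertain. Cyp4a12a, of the same family, gave 4942 in FLS livers against 6917 in DS livers, a ratio of 0.714. The lipid droplet gene Plin2 had a ratio of 1.30 and the mitochondrial oxidation gene Hadha of 1.23. Ehhadh and Abcd3, which handle dicarboxylic acids, had ratios of 1.22 and 0.852.

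**Figure D4:**
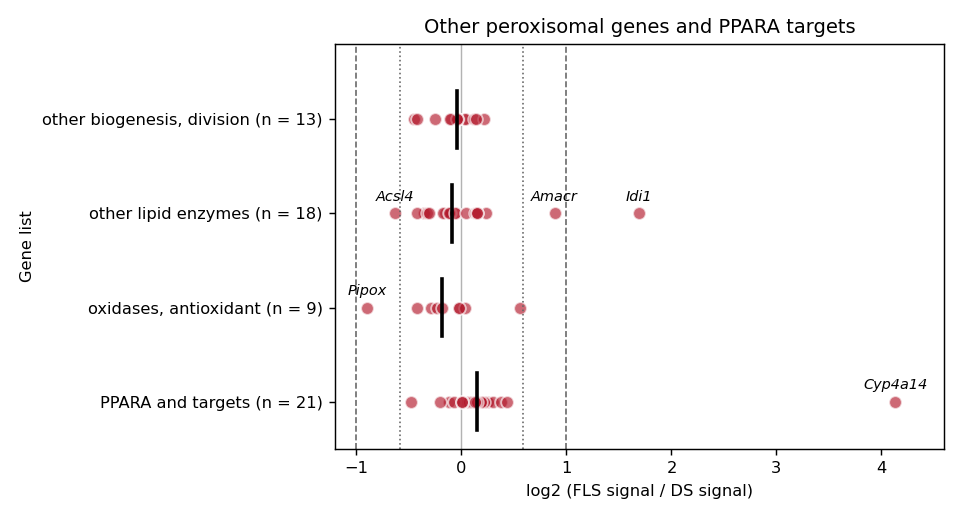
Log2 FLS/DS ratio of measured genes in 3 lists of other peroxisomal genes and in the list of PPARA and its targets, 1 point per gene, with the median of each list (black bar) and lines at 1.5-fold (dotted) and 2-fold (dashed). Most points lie between the dotted lines. Idi1, Amacr and Cyp4a14 lie to the right, and Pipox and Acsl4 to the left.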

How the data were processed

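Liver RNA of FLS and DS mice was measured in 2 pooled samples, 1 Affymetrix array per strain. The authors deposited linear signal intensities per probe set, normalized and summarized by MBEI (PM-only), which models the responses of perfect-match probes. The affy software appears in the submitters' processing notes with no version. How both arrays were scaled to each other was not given in the sources used here.

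Of 45101 probe sets, 34958 had 1 gene symbol, 932 had several and were not used, and 9211 were unnamed. Symbols were updated or kept through Entrez numbers in a RefSeq table for 34754 probe sets. Ratios were FLS/DS without offset. All 37 genes are named in the text. From each other list, the 6 measured genes with the largest absolute log2 ratio or fewer are named, and also Cat, Ppara and Ppargc1a. The genes and lists were chosen with earlier results of these data known. Alternatives were 4 scalings (quantile normalization, median centring, loess with fraction 0.4, division by Actb, whose ratio was 0.867), an offset of 50, other choices of probe set, signal limits of 200, of 1000, of 500 in both pools or no limit, and a 3-fold call. A search for C-terminal import signals was planned but not run, as no protein sequences were used here. The calculation of ratios and fold counts was tested on simulated data with 1 probe set per gene. That test did not cover the choice of probe set, the symbols, the signal limit or the scalings. The number of arrays, 2, limits the precision. Software was Python 3.11.15 with pandas 2.3.3, numpy 2.4.6, matplotlib 3.10.9 and statsmodels 0.14.6.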

Additional observations from a re-analysis of the deposited data

How the results depend on the processing

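No paired analysis was possible because each strain had 1 array. Division by the ratio of Actb shifted the log2 ratios of all genes upward by 0.21, so that the median of the 30 peroxisomal genes became 0.26 and that of every measured gene 0.25. It left 1 peroxisomal gene past 2-fold upward (Crot), among the other peroxisomal genes 2 past 2-fold upward and 1 past 1.5-fold downward, and among PPARA and its targets 3 past 1.5-fold upward. Of all measured genes, 3.37% then passed 2-fold upward, 14.0% passed 1.5-fold upward and 2.66% downward. With the median taken over the probe sets of each gene, 1 of the studied genes was at least 1.5-fold higher, the cytosolic Acot1. With a signal above 1000, 1 of them was at least 1.5-fold higher, Crot. Without probe sets whose names end in _x_at, _s_at or _a_at, 1 other peroxisomal gene, Nudt7, was at least 2-fold lower. A signal above 500 in both pools left 0 at least 2-fold and 1 at least 1.5-fold higher among the other peroxisomal genes, and 0 and 0 among PPARA and its targets, a list that lost Cyp4a14. In that list 2 were at least 2-fold and 4 at least 1.5-fold higher with a limit of 200, and 2 and 5 with no limit, where more genes are counted. All other counts stayed within 1.5 times. Over all alternatives the median log2 ratio ran from -0.044 to 0.26 for the peroxisomal genes, from 0.020 to 0.29 for biogenesis genes, from -0.32 to -0.026 for transporters, from -0.065 to 0.23 for oxidation enzymes, from 0.19 to 0.59 for thioesterases and Crot, from -0.11 to 0.15 for the other peroxisomal genes and from 0.10 to 0.36 for PPARA and its targets. Of 319 ratios of single peroxisomal genes under alternatives, 1 shifted by more than the SD of 0.22 between probe sets, that of Crot over its probe sets. Many of the 319 could not shift so far. A changed signal limit keeps each ratio as it was. Median centring and division by Actb move every ratio alike by less than this SD. None of the 2 called ratios changed side.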
